A study of Mus musculus with 8 samples.

Results

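Complex I, the NADH dehydrogenase of the mitochondrial respiratory chain, was examined through its nuclear genes in alveolar macrophages. The cells came from mice in which Cre recombinase targets Tfam and from controls. The genes were chosen by name, as all genes whose symbol begins with Nduf apart from Ndufa4, which belongs to complex IV, and apart from 3 names that contain -ps. Among these 3 is Ndufb1-ps, which may stand for the mouse Ndufb1 subunit gene, so that the list of subunits may lack a subunit. This gave 45 of the 12367 genes in the deposited table, of which 37 are filed as subunits and 8 as assembly factors (Ndufaf genes). The KO pools came from CD11c-Cre Tfam-fl/fl mice, in which the CD11c promoter drives Cre recombinase in floxed Tfam animals, and the WT pools came from Tfam-fl/fl mice without Cre. Both groups were untreated and 3 weeks old, and each had 4 libraries of polyadenylated RNA, each from cells of 3 to 5 male and/or female mice pooled and, after enrichment on CD11c beads, flow-sorted from lung as CD45+ F4/80+ CD11c+. Every mouse carried floxed Tfam and no group carried Cre alone, so that effects of Cre and of losing Tfam cannot be told apart. The CD11c promoter is also active in dendritic cells.

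Complex I takes electrons from NADH in the mitochondrial matrix, passes them along a chain of iron-sulfur clusters to ubiquinone, and pumps protons across the inner membrane. Its matrix arm holds an N module, where NADH is oxidised, and a Q module, where ubiquinone is reduced, and its membrane arm holds the proton pumps. The pump subunits are encoded by mitochondrial DNA, which Tfam packages and transcribes, while the core subunits of the matrix arm and all accessory subunits and assembly factors are encoded in the nucleus. The 2 genomes therefore supply 1 enzyme, and assembly factors join its modules without staying in the finished complex. The roles named below were worked out mainly in human and bovine mitochondria.

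Promoter sequences are shown for Ndufa6, the subunit with the largest fold change, and for Ndufa12 and Ndufb4, a called and an uncalled subunit that carry the letters of the core of a binding motif of NRF1, a nuclear factor known to act at promoters of respiratory chain genes. Each is the stretch of 250 bases before the RefSeq start of the gene in build GRCm38.p6, on the strand of the gene. They lie at chr15:82354292-82354541 on the minus strand for Ndufa6, chr10:94198785-94199034 on the plus strand for Ndufa12 and chr16:37654369-37654618 on the minus strand for Ndufb4. Capitals mark the NRF1 letters GCGCNTGCG read on either strand, in which N stands for any base.
Ndufa6: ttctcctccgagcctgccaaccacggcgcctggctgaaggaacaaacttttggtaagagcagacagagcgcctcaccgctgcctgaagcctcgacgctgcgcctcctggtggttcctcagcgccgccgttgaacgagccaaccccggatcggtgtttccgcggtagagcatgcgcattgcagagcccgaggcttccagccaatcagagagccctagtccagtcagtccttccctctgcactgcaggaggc
Ndufa12: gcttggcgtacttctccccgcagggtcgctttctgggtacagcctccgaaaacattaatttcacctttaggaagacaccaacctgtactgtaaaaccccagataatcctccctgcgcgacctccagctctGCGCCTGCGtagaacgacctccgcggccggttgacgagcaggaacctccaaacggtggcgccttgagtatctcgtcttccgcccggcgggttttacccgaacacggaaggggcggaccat
Ndufb4: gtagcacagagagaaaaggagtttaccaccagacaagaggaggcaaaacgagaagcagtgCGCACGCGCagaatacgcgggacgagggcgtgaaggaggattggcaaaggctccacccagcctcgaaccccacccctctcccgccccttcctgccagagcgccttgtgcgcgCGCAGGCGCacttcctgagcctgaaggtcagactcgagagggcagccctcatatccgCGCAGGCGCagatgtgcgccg

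In RefSeq, 39 of the 45 genes had a promoter entry, and 9 of these 39 (23.1%) held the NRF1 letters, against 5.88% of 27025 genes with an entry. The 27025 include genes that the deposited table does not list, and were not matched to the 39 in level or base content. The 9 were Ndufa5, Ndufa8, Ndufa11, Ndufa12, Ndufb4, Ndufb10, Ndufs5, Ndufs6 and Ndufaf4, and Ndufb4 held the letters at 3 places. Ndufa12 was the single gene among them that passed the test between KO and WT described further on, and 3 passed with the replicate number as a block. The letters ACCGGAAG of an ETS factor motif were in 2 of the 39, Ndufb6 and Ndufaf1 (5.13%, against 1.95% of all genes). Neither AAGATGGCG, a motif of YY1, nor TGATGNAA, a motif of ATF4, was found in any of the 39, against 0.71% and 3.91% of all genes. Both strands were searched for each motif, and no motif overlapped another in the windows of the 3 genes shown. A match is a description of the letters and not of a bound factor. The windows follow the RefSeq starts. The letters of Ndufa5, Ndufa8, Ndufa12, Ndufb10 and Ndufs6 also lie inside the gene as GENCODE M21 places it. The same holds for some, not all, of the places in Ndufb4.

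The libraries held 20243772 to 30263201 reads in listed genes in KO and 24776683 to 29161957 in WT, and depth did not differ beyond its spread (two-sided exact permutation p = 0.343). The complex I genes rested on 74 to 3686 reads per gene and library. Tfam averaged 4.35 ± 0.648 in KO and 30.3 ± 3.72 in WT on the normalised per-million scale used throughout (SD, n = 4 each; log2 fold change -2.55, limma adjusted p = 1.02e-06). All 12 markers of alveolar macrophages were listed, summing to 34277 to 39698 in KO and 33685 to 36151 in WT. Of these markers, 2 were called higher and 5 lower in KO, where 18.7% and 20.0% of all tested genes were so called. Of 9 markers of interstitial macrophages and monocytes 7 were listed, summing to 261 to 377 in KO and 246 to 290 in WT, and 5 of them were higher in KO. No marker of T and NK cells (7) or of eosinophils and mast cells (4) was among the genes listed, and the sums for neutrophils (3 of 6 listed; 12.1 to 21.1 in KO and 13.8 to 41.7 in WT), dendritic cells (6 of 7; 15.4 to 28.2 in KO and 14.3 to 20.6 in WT), B cells (2 of 5; 4.09 to 5.18 in KO and 2.17 to 5.75 in WT), epithelium (5 of 8; 69.7 to 106 in KO and 45.9 to 124 in WT), endothelium and fibroblasts (6 of 7; 34.4 to 66.8 in KO and 23.1 to 109 in WT) and erythroid cells (4 of 5; 12.9 to 68.0 in KO and 25.3 to 60.7 in WT) overlapped between the groups. In these other lists 1 dendritic cell marker was called higher and 1 neutrophil marker lower. The part of these cells in the results below was not tested, and fewer cells of a type cannot be told apart from less RNA per cell in such pools.

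Differences between KO and WT in the nuclear complex I genes were small. Of the 45, 10 passed the test as higher and none as lower, and the log2 fold changes ran from -0.19 to 0.72 around a median of 0.13. On a plain per-million scale, without the authors' scaling of library size, 5 of the 45 were called higher (11.1%, against 14.1% of all genes tested on that scale) and 4 lower (8.89%, against 28.7%). All 45 passed the filter on low values. The 10 called higher are 22.2% of the genes, close to the 18.7% of all 12163 tested genes called higher without a replicate block. Of all tested genes 38.7% were called in either direction and 20.0% lower, and the median of all tested genes was -0.01. Pairing the pools by replicate number gave 15 of the 45 as higher and 0 as lower, against 22.4% and 24.3% of all tested genes. Whether complex I differs from other genes in these shares was not tested. The KO values all lay above the WT values in 10 of the 45 genes and below them in 0, against 18.1% and 19.6% of all tested genes (37.7% in either direction). At an unadjusted limma p under 0.05, 16 of the 45 were higher and 0 lower. Of all 12163 tested genes, 2771 were higher and 2962 lower at that threshold. In 34 of the 45 the fold change was under 0.25 log2 units in size, and in 33 of the 35 genes not called the 95% interval lay within 0.5 log2 units of 0.

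**Figure D1:**
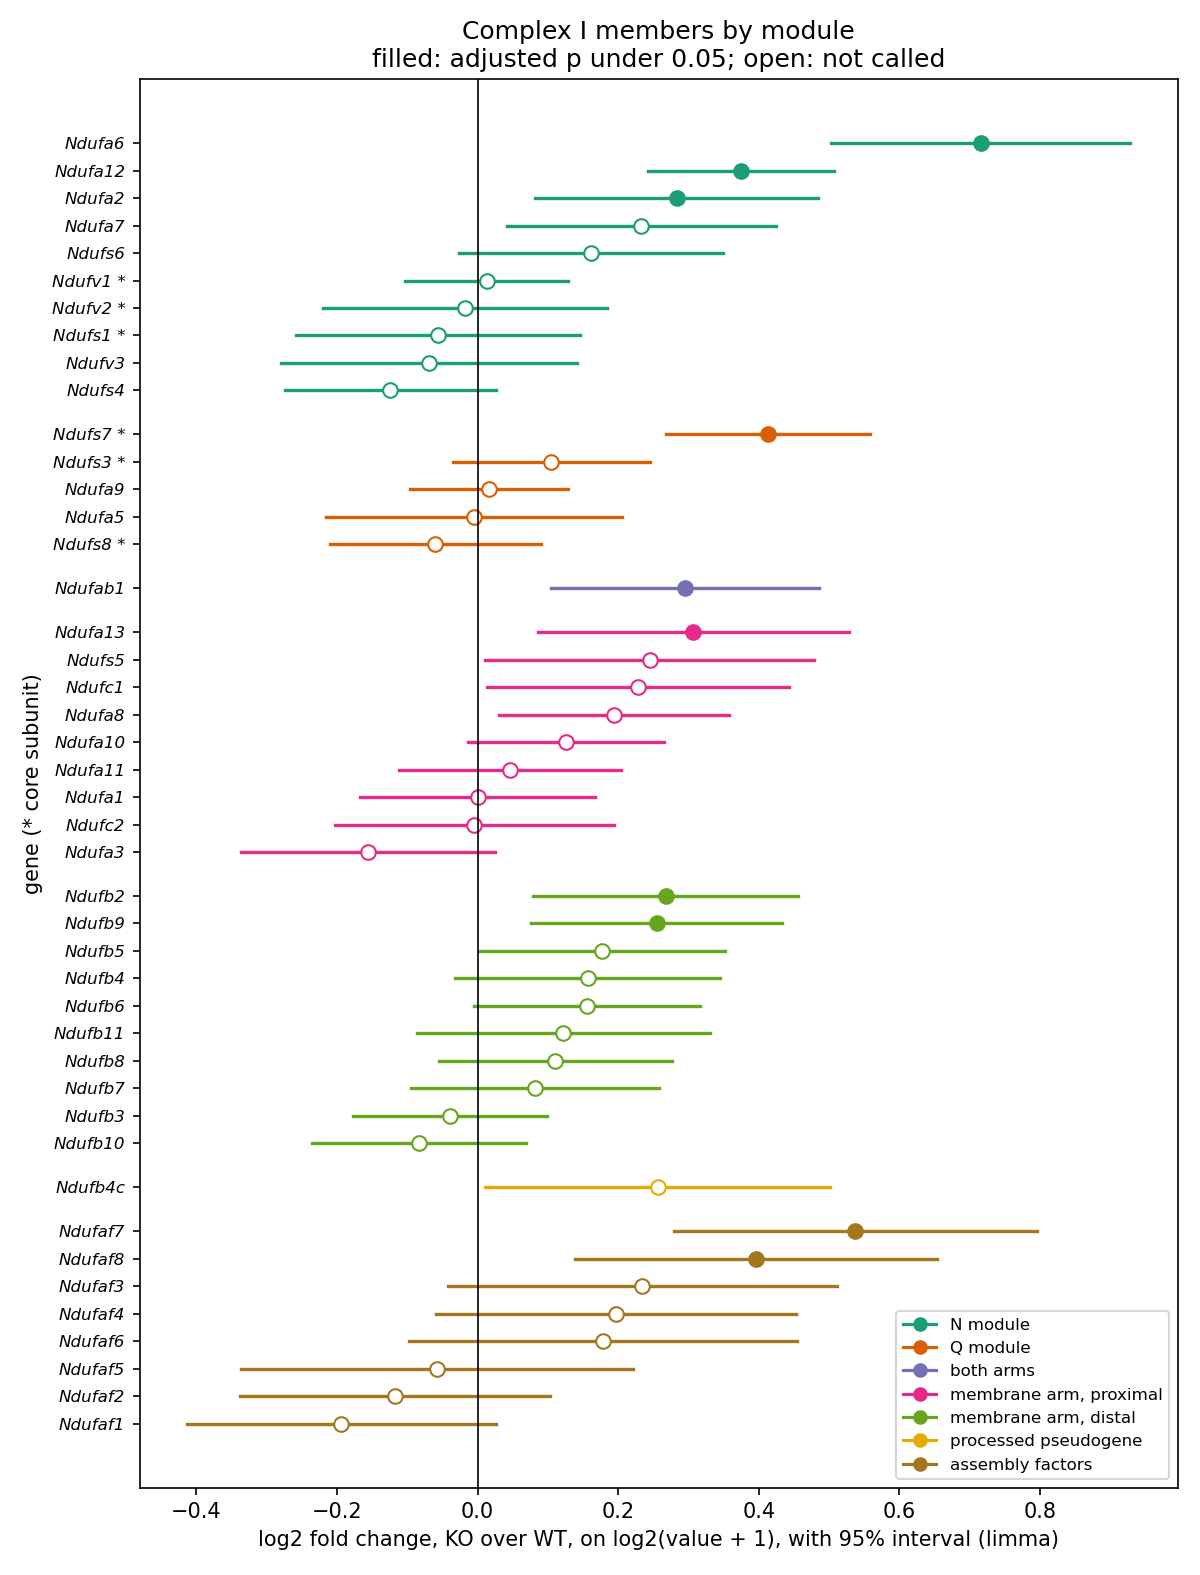
Log2 fold changes of 44 of the 45 complex I genes, KO over WT on the log2(value + 1) scale, with 95% limma intervals on the horizontal axis and genes by module down the page; filled points passed an adjusted p of 0.05, open points did not, and a star marks core subunits. The 10 filled points all lie right of 0, led by Ndufa6 at 0.72, and no called point lies left of 0 on this scale (4 genes were called lower on the plain per-million scale).

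The accessory subunit Ndufa6 had the largest difference. Ndufa6 (ENSMUSG00000022450, chromosome 15, 82350140 to 82354322 in GRCm38, minus strand, protein-coding) belongs to a family with a leucine-tyrosine-arginine motif and holds a copy of the acyl carrier protein on the matrix arm. Its values were 80.8, 59.6, 66.3 and 69.6 in KO replicates 1 to 4, against 44.2, 42.7, 36.9 and 42.3 in WT replicates 1 to 4. Every KO library lay above every WT library. The means were 69.1 ± 8.85 in KO and 41.5 ± 3.20 in WT, 66.4% higher in KO (log2 fold change 0.72, SE 0.0948, limma adjusted p = 0.000287).

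Ndufb9, the other subunit of that family, holds a further copy of the acyl carrier protein on the membrane arm. It had 64.7, 58.6, 61.7 and 57.0 in KO, against 54.4, 54.5, 50.1 and 43.6 in WT (log2 fold change 0.26, limma adjusted p = 0.0297). Ndufab1, the acyl carrier protein itself, which also serves mitochondrial fatty acid synthesis, had 24.0, 26.4, 25.9 and 27.0 in KO, against 17.9, 23.0, 20.5 and 22.3 in WT (log2 fold change 0.30, limma adjusted p = 0.0212). In both genes all KO libraries exceeded all WT libraries. Both calls were less firm than that of Ndufa6. The call of Ndufb9 was lost when KO replicate 1 (adjusted p = 0.0806), KO replicate 3 (0.0721) or WT replicate 3 (0.0618) was left out. Ndufab1 missed the threshold on removal of KO replicate 2 (adjusted p = 0.0524) or KO replicate 3 (0.0508). On the plain per-million scale Ndufb9 had an adjusted p of 0.119 and Ndufab1 of 0.0852. Over all alternatives the adjusted p ran from 0.00795 to 0.119 for Ndufb9 and from 0.00628 to 0.0852 for Ndufab1. Gm49356, a listed gene on the same strand, overlaps exons of Ndufb9, so that reads can be shared between them.

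The matrix arm has 7 nuclear core subunits, which carry the redox centres of the complex. Of these, Ndufs7 was called higher in KO, and no other core subunit was called. Ndufs7, which holds the last iron-sulfur cluster before ubiquinone, had 40.2, 36.7, 39.8 and 35.7 in KO, against 26.5, 29.4, 29.4 and 28.1 in WT. The KO libraries all lay above the WT libraries, with means of 38.1 ± 2.26 in KO and 28.3 ± 1.36 in WT (log2 fold change 0.41, SE 0.0648, limma adjusted p = 0.000813).

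Ndufv1, which binds NADH and the flavin, averaged 79.5 ± 3.32 in KO and 78.8 ± 2.83 in WT, with a 95% interval of the log2 fold change of -0.10 to 0.13. Its partner Ndufv2, which carries an iron-sulfur cluster, averaged 81.9 ± 9.98 in KO and 82.6 ± 5.87 in WT, with an interval of -0.22 to 0.18. The largest subunit, Ndufs1, averaged 115 ± 10.9 in KO and 120 ± 11.7 in WT, with an interval of -0.26 to 0.15, and was lowest in replicate 4 of each genotype. Ndufs8, which carries iron-sulfur clusters next to Ndufs7, averaged 36.7 ± 2.5 in KO and 38.3 ± 1.89 in WT, with an interval of -0.21 to 0.09. Ndufs3, a core subunit with no cofactor, averaged 53.2 ± 3.68 in KO and 49.4 ± 1.79 in WT, with an interval of -0.04 to 0.25. These intervals leave room for differences of up to about 0.26 log2 units in size, so that these 5 genes are not shown to be equal between the genotypes.

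In the N module, with which Ndufa6 is grouped here, 3 of 10 genes were called higher (30%, against 18.7% of all tested genes). All of them were accessory subunits. Ndufa12, which takes the place of the assembly factor Ndufaf2 late in assembly, had 34.7, 34, 32.3 and 31.2 in KO, against 25.4, 25.9, 25.4 and 24.3 in WT. Its KO and WT values were apart in every library (log2 fold change 0.37, SE 0.0589, limma adjusted p = 0.000827). Ndufa2, a small subunit with a thioredoxin-like fold, had 52.9, 41.5, 46.5 and 46.3 in KO, against 42.3, 39.9, 34 and 36.9 in WT (log2 fold change 0.28, limma adjusted p = 0.0313). KO replicate 2 lay below WT replicate 1, so that the groups overlapped. The call of Ndufa2 was lost on removal of KO replicate 1 (adjusted p = 0.0822), of KO replicate 3 (0.0662), of KO replicate 4 (0.0505), of WT replicate 3 (0.081), of WT replicate 4 (0.0611) or of both replicate-4 libraries (0.0784), and on the plain per-million scale (0.0971). Over all alternatives its adjusted p ran from 0.011 to 0.0971. An exon of Tmco6, a listed gene on the opposite strand, overlaps Ndufa2. Ndufa7 had 33.3 to 38.3 in KO and 25.5 to 32.8 in WT. These ranges did not overlap, but Ndufa7 was not called (log2 fold change 0.23, adjusted p = 0.0556), and passed with the replicate number as a block (0.0145) and in 4 other alternatives. The remaining accessory subunits, Ndufs6, Ndufv3 and Ndufs4, had log2 fold changes of 0.16, -0.07 and -0.12 and were not called. Ndufs4 was called lower on the plain per-million scale (log2 fold change -0.21, adjusted p = 0.0252). The Q module beside it held Ndufs7 and no other called gene, its 2 accessory subunits Ndufa5 and Ndufa9 lying at -0.0049 and 0.02.

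In the membrane arm, 3 of 19 subunits were called higher, against 18.7% of all tested genes. They were Ndufa13 in the proximal part and Ndufb2 and Ndufb9 in the distal part. Ndufa13, also known as GRIM-19, had 50.5, 38.1, 41.7 and 44.3 in KO, against 37.1, 39.0, 32.0 and 32.0 in WT (log2 fold change 0.31, limma adjusted p = 0.0332). KO replicate 2 lay below WT replicate 2. Its adjusted p was 0.0847 with KO replicate 1 left out, 0.0557 with KO replicate 3, 0.0621 with KO replicate 4, 0.084 with WT replicate 3, 0.0728 with WT replicate 4 and 0.107 with both replicate-4 libraries. On the plain per-million scale it was 0.0953, and over all alternatives it ran from 0.0187 to 0.107. Ndufb2, a small subunit of the distal part, had 17.9, 17.7, 17.8 and 17.9 in KO, against 14.3, 17.2, 13.9 and 13.4 in WT (log2 fold change 0.27, limma adjusted p = 0.0304). The KO values were nearly equal and all above WT, with WT replicate 2 close beneath them. This call survived the removal of WT replicate 2 and was lost without any other single library (adjusted p of 0.0518 to 0.0757), with both replicate-4 libraries left out (0.0849) and on the plain per-million scale (0.115). Over all alternatives its adjusted p ran from 0.00696 to 0.115. An exon of Braf, a listed gene on the opposite strand, overlaps Ndufb2. Gm42420, an unlisted gene on the same strand, also overlaps Ndufb2, so that reads can be shared between them.

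With the replicate number as a block, which compares same-numbered pools, 13 subunits were called higher in place of 8, against 22.4% of all tested genes called higher in that fit (24.3% were called lower and 46.7% in either direction). The 5 added were Ndufa7, Ndufs5 (adjusted p = 0.0153), Ndufa8 (0.0405), Ndufc1 (0.0445) and Ndufb5 (0.0448), the last 4 all in the membrane arm. Without the block their adjusted p lay between 0.0556 and 0.102. Ndufs5, a membrane arm subunit that faces the intermembrane space, had 24.9 to 31.7 in KO and 20.1 to 26.8 in WT. Ndufa8, which also faces that space, had 45.9 to 57.5 in KO and 42.1 to 46.3 in WT. Ndufc1 had 17.7 to 19.8 in KO and 13.1 to 17.7 in WT, and Ndufb5 had 53.1 to 60.9 in KO and 43.1 to 53.1 in WT. In both, the lowest KO and the highest WT value differ only past the printed digits. The ranges overlapped for Ndufc1 and did not for Ndufb5. Each of the 5 added genes was higher in KO than in WT in all 4 same-numbered pairs except for Ndufa8 in replicate 2.

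The other membrane arm subunits had log2 fold changes between -0.16 and 0.16 and none was called. The lowest was Ndufa3, a proximal subunit, with 40.0, 32.5, 33.2 and 36.8 in KO, against 41.5, 42.5, 37.4 and 37.6 in WT (log2 fold change -0.16, adjusted p = 0.156). The ranges overlapped. On the plain per-million scale Ndufa3 was called lower (log2 fold change -0.25, adjusted p = 0.0298, within a range of 0.0298 to 0.328 over all alternatives). Ndufb4c is filed with the subunits by its name but is a processed pseudogene in GENCODE M21. It had 20.4 to 24.2 in KO and 15.4 to 22.2 in WT, and Ndufb4, the gene it resembles, had 10.9 to 11.9 in KO and 9.43 to 11.6 in WT. Reads can be split between such copies, so the single values of both are uncertain, and neither was called.

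**Figure D2:**
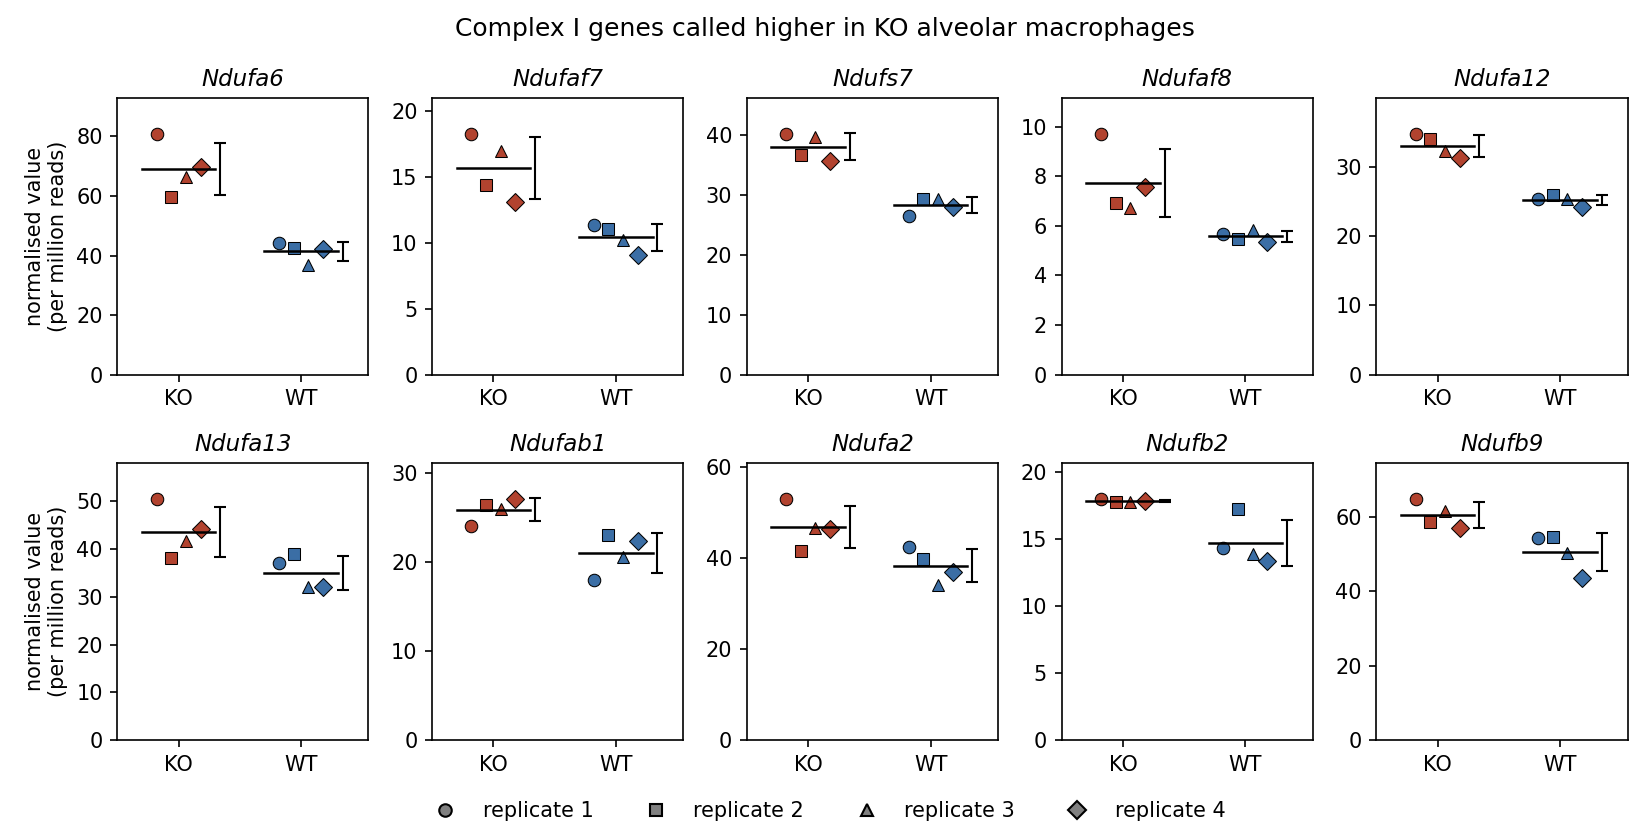
Normalised values, per-million scale, of the 10 complex I genes called higher, KO left and WT right in each panel; symbols are the 4 replicate pools, lines the means and bars the SD. KO and WT do not overlap for 8 of the 10, the exceptions being Ndufa13 and Ndufa2, and 5 of the 10 kept their call on the plain per-million scale.

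Of the 8 Ndufaf assembly factors, 2 were called higher (25%, against 18.7% of all tested genes). Ndufaf7, a methyltransferase that acts early in assembly, had 18.3, 14.4, 16.9 and 13.1 in KO, against 11.4, 11.1, 10.2 and 9.08 in WT. All KO libraries exceeded all WT libraries, with means of 15.7 ± 2.35 in KO and 10.4 ± 1.03 in WT, 50.1% higher in KO (log2 fold change 0.54, SE 0.115, limma adjusted p = 0.0048). Ndufaf8, a partner of Ndufaf5, had 9.70, 6.91, 6.73 and 7.56 in KO, against 5.66, 5.46, 5.85 and 5.35 in WT. These groups did not overlap either (log2 fold change 0.40, SE 0.115, limma adjusted p = 0.0216). KO replicate 1 was well above the other KO pools. The call of Ndufaf8 was lost with WT replicate 2 (adjusted p = 0.0535) or both replicate-4 libraries (0.0603) left out, over a range of 0.0149 to 0.0603 in all alternatives.

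Ndufaf5, which hydroxylates an arginine of Ndufs7, averaged 7.42 ± 1.03 in KO and 7.77 ± 1.10 in WT and was not called (interval -0.34 to 0.22). Ndufaf3, which binds Ndufaf4 and the Q module, had 8.99 to 13.0 in KO and 8.11 to 10.3 in WT (adjusted p = 0.165). Ndufaf4 had 17.4 to 22.6 in KO and 15.1 to 19.3 in WT (adjusted p = 0.206), so that neither was called. Ndufaf6, which acts on the part of the complex around ND1, had 3.41 to 4.65 in KO and 2.94 to 3.78 in WT (interval -0.10 to 0.45). Ndufaf2 had 6.17 to 7.97 in KO and 7.16 to 8.29 in WT (interval -0.34 to 0.10). Ndufaf1, which helps to build the membrane arm, had 12.7, 13.6, 14.3 and 15 in KO, against 13.2, 16.9, 17.4 and 16.8 in WT. Its KO values lay below those of WT replicates 2 to 4, while WT replicate 1 stood apart, and it was not called (log2 fold change -0.19, adjusted p = 0.149). Without WT replicate 1 Ndufaf1 was called lower (log2 fold change -0.28, adjusted p = 0.0295), as it was on the plain per-million scale (adjusted p = 0.0497), over a range of 0.0295 to 0.301 in all alternatives.

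The calls of Ndufa6, Ndufs7, Ndufa12 and Ndufaf7 held in each of the 19 alternative fits, with adjusted p at most 0.00158, 0.00389, 0.00357 and 0.0176. The 8 subunits called higher became 4 on removal of KO replicate 1, 3 on removal of KO replicate 3, 5 on removal of KO replicate 4, 4 on removal of WT replicate 3 and 5 on removal of WT replicate 4. Over all tested genes the 2279 called higher became 1938, 1850, 2252, 2092 and 2217 in these fits, in the same order. The 2 assembly factors became 1 on removal of WT replicate 2.

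Within each genotype the same libraries tended to hold the high or the low values of the subunits. KO replicate 1 had the highest KO value of 33 of the 37 subunits, and KO replicate 2 the lowest of 21. In WT, replicate 2 was highest for 27 and replicate 4 lowest for 24. Over all 12163 tested genes, KO replicate 1 was highest for 3185 and KO replicate 2 lowest for 2999, while WT replicate 2 was highest for 2544 and WT replicate 4 lowest for 4428. The summed value of the 37 subunits was 1849, 1621, 1704 and 1672 in KO replicates 1 to 4, against 1653, 1699, 1566 and 1483 in WT replicates 1 to 4. These sums overlapped between the genotypes, with means of 1711 ± 98.2 in KO and 1600.1 ± 95.7 in WT. The summed assembly factors were 89.7, 82.4, 90.9 and 83.8 in KO, against 70.2, 81.2, 79.2 and 79.3 in WT, and did not overlap on the authors' scale.

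**Figure D3:**
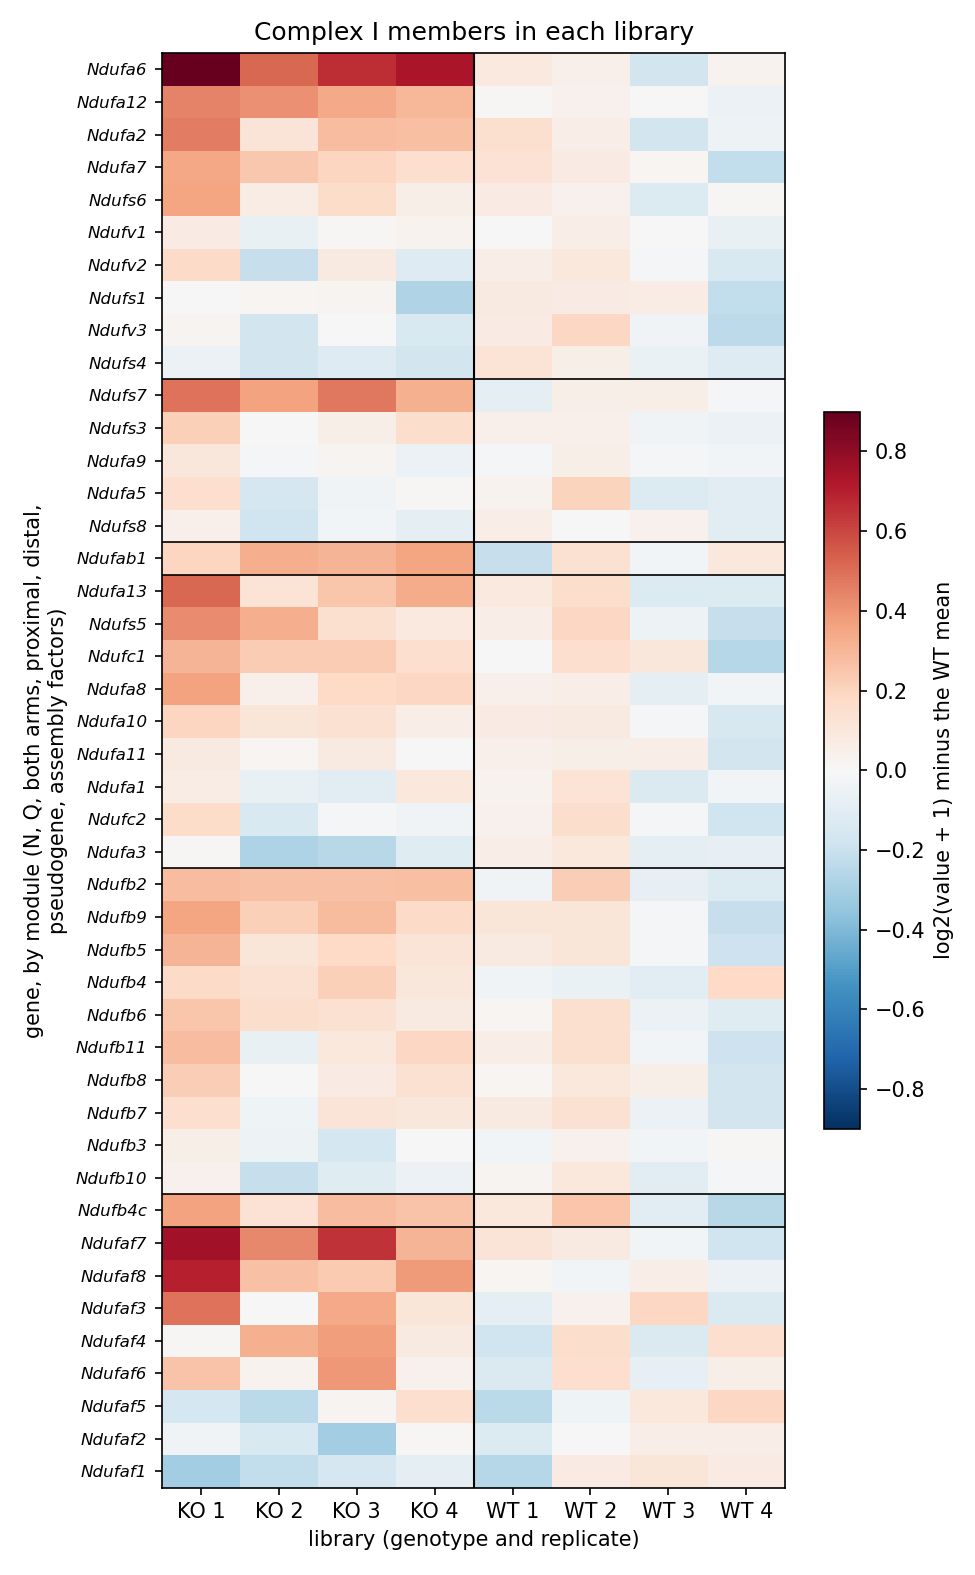
Each of 44 of the 45 complex I genes (rows, by module) in each library (columns, KO left and WT right), as log2(value + 1) minus the WT mean of the gene; red is above and blue below that mean. The KO replicate 1 column is the reddest of the 4 KO columns, being highest for 33 of 37 subunits, and the rows of Ndufa6, Ndufa12, Ndufs7, Ndufaf7 and Ndufaf8 are red in all 4 KO columns.

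As a share of all reads in listed genes, the subunits took 0.166% ± 0.00842 in KO and 0.165% ± 0.0101 in WT (SD, n = 4 each). The assembly factors took 0.00858%, 0.008%, 0.00882% and 0.00812% in KO replicates 1 to 4, against 0.00717%, 0.00841%, 0.0082% and 0.00814% in WT replicates 1 to 4, and these shares overlapped. The authors' scaling of the libraries differed between the genotypes. All deposited values of a library summed to 1.03 ± 0.00689 times the sum on the plain scale in KO and 0.969 ± 0.00685 times in WT. Of the calls over all genes 48.4% were higher on the deposited scale and 32.9% on the plain per-million scale. On the plain scale 3 subunits were called higher (Ndufa6, Ndufs7 and Ndufa12) and 3 lower (Ndufs4 and Ndufa3 among them), against 14.1% higher and 28.7% lower over all genes tested on that scale, with a median of 0.03 over the subunits.

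Many accessory subunits, though not all, are small proteins with short transcripts. Of the 45 genes 25 have a GENCODE M21 transcript length of at most 1 kb, the pseudogene Ndufb4c among them. Among all 1084 tested genes of that length 25.7% were called higher and 11% lower around a median of 0.09 log2 units, whereas of the 3444 genes with transcripts over 4 kb 16.4% were higher and 23.4% lower, with a median of -0.04. Of the 25 complex I genes of at most 1 kb, 5 were called higher, and their median was 0.16 log2 units. The 15 genes between 1 and 2 kb had a median of 0.02 with 3 called higher. The 5 genes between 2 and 4 kb had a median of 0.20 with 2 called higher, against a median of -0.02 over all 4930 genes of that length. The part of transcript length in these results was not tested.

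Levels were compared between genes per kb of this transcript length, since longer transcripts give more reads. Ndufa6 had the highest level per kb in KO, 117 ± 15, and ranked 7 of 45 in WT with 70.4 ± 5.43. Ndufb9 and Ndufb8 came next in KO, with 85.9 ± 4.87 and 82.5 ± 5.45 per kb, and these 2 differed by less than their spread. Ndufb10 ranked 5 in KO with 76.7 ± 5.58 per kb and was the highest in WT with 81.3 ± 4.66. The 8 assembly factors all lay among the lowest 10 genes in KO, down to Ndufaf6 with 3.61 ± 0.556 per kb in KO and 3.07 ± 0.351 in WT. A gene with several transcript lengths would change place if another transcript were used.

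The 7 mitochondrially encoded subunits, which form the proton-pumping core of the membrane arm, all fell in KO. Their summed value was 337, 223, 405 and 324 in KO, against 3795, 3060, 5086 and 3591 in WT, and the median log2 fold change was -3.47. The pump subunit mt-Nd5 averaged 52.4 ± 11.4 in KO and 874 ± 195 in WT. The subunit mt-Nd1, which lines the ubiquinone site, averaged 95 ± 23.1 in KO and 1051 ± 204 in WT. The values of mt-Nd4, mt-Nd4l and mt-Nd3 are uncertain, because listed pseudogene copies have sequence in common with them. The 45 nuclear genes ranged from -0.19 to 0.72 log2 units where the partners encoded in mitochondrial DNA ranged from -4.04 to -2.64.

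**Figure D4:**
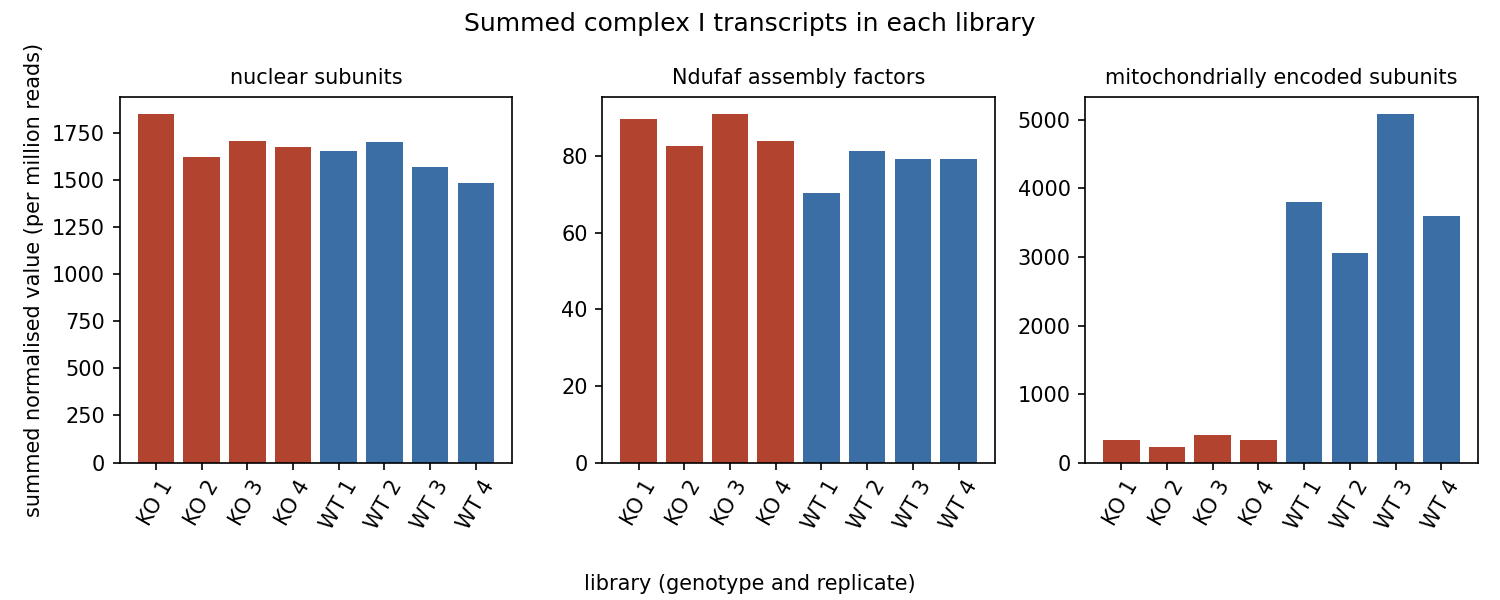
Summed normalised values, per-million scale, of the 37 nuclear subunits, the 8 Ndufaf assembly factors and the 7 mitochondrially encoded subunits in each library, KO in red on the left and WT in blue on the right; each bar is 1 library. The nuclear subunit sums overlap (1621 to 1849 in KO and 1483 to 1699 in WT), while the mitochondrially encoded sums are 223 to 405 in KO and 3060 to 5086 in WT.

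Among 13 measured assembly factors with names other than Ndufaf, 2 were called lower by limma (15.4%, against 20.0% of all tested genes) and none higher. The median of the 13 was 0.02 log2 units (1 higher and 2 lower at an unadjusted p under 0.05). Tmem126b, which works with Ndufaf1 on the membrane arm, had 20.7, 21.7, 19.1 and 22.6 in KO, against 24.6, 27.5, 23.3 and 26.5 in WT (log2 fold change -0.27, limma adjusted p = 0.0223). Foxred1, an oxidoreductase-like assembly factor, had 29.5, 28.7, 29.7 and 26.3 in KO, against 35.6, 34.6, 33.6 and 30.8 in WT (log2 fold change -0.23, limma adjusted p = 0.0227). In both the KO libraries lay below all WT libraries.

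In the nuclear subunits of the other complexes, 1 of 4 was called higher in complex II, 2 of 9 in complex III, 4 of 11 in complex IV and 1 of 17 in the ATP synthase, where 1 was lower. Their medians were 0.02, 0.07, 0.05 and 0.05, against 0.12 for the complex I subunits, and no test of the difference was made. Cox7a2l, which links complexes III and IV in supercomplexes, was 279 ± 18.1 in KO and 188 ± 10.9 in WT, and the other 2 supercomplex factors were not called. With the replicate block 5 of 11 were called higher in complex IV, against 22.4% of all tested genes. The counts of the other lists were as without it. No other alternative was run for these lists.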

How the data were processed

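For each gene and each of the 8 RNA-seq libraries the authors deposited a signal, that is a normalised abundance, in columns named in the sample descriptions. The submitters' processing notes name the build GRCm38, limma, RSEM 1.3.1, cutadapt 1.7.1 and CASAVA 1.8.2. Which aligner, annotation release and strand setting were used is not given in the sources used here. Strand is preserved by the library kit, per the labels' protocols. The values have the form of a whole read number plus 0.5, put on a per-million scale with a scaled library size: within 0.01 of a read, 100% of the values in every library gave a whole number. The read numbers served for depth, shares and the plain per-million scale. No count test was run.

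A gene entered the test if 4 or more libraries reached a value of 1 (12163 genes, 204 left out). On log2(value + 1), limma 3.58.1 in R 4.3.3 compared the genotypes two-sided, with moderated variances that follow mean level, and a call needs a Benjamini-Hochberg adjusted p under 0.05 over all genes. Fold changes are KO over WT on this scale, which understates changes of low genes. Single values were tested by exact permutation, whose smallest p is 0.0286. The steps were tested on simulated data.

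The complex I genes and lists were chosen with earlier results of these data known. Named are the genes past the threshold, the core subunits, the Ndufaf genes, the 2 highest and lowest fold changes, those whose call changes with the replicate block, and at most 2 genes of each other list by p. Ndufs4, Ndufs6, Ndufv3, Ndufa5, Ndufa9, Ndufb4, Ndufb4c, Ndufb8, Ndufb6 and other holders of motif letters, and Ndufb10 were also named, in part after their values were seen, for completeness of a module or for their level. The single values of 1 gene are not reported here, though it is counted in the totals.

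Both genotypes share replicate numbers. The correlation of deviations from the genotype means was 0.363, 0.286, 0.394 and 0.431 in the 4 same-numbered pairs and -0.374 to 0.0917 in all others. The same-numbered pools were therefore read as pairs, from the data and not from the labels. The main fit, with its calls and intervals, does not use these pairs, and a blocked fit was run as an alternative. Modules follow a common division of complex I. Transcript lengths are medians over the GENCODE M21 transcripts marked as principal. Where a gene had none, its protein-coding transcripts were used, or else its other basic transcripts. The motif letters were chosen with the fold changes known, and the NRF1 letters are a shortened form of a longer pattern that was searched before.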

Additional observations from a re-analysis of the deposited data

Results flagged for a closer look

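In a group of 4 libraries, a value was picked out when its gap to the nearest other value exceeded 0.829 of the range. Of 90 groups (45 genes in 2 genotypes) 4 met this, and chance picks out about 1 in 20 groups. Ndufs1 was 98.9 in KO replicate 4, against 119 to 122 in the other KO pools, and 102 in WT replicate 4, against 125 to 126 in the other WT pools. Ndufa11 was 20.4 in WT replicate 4, against 23.7 to 24.0 in the other WT pools. Ndufaf1 was 13.2 in WT replicate 1, against 16.8 to 17.4 in the other WT pools. On the second principal component of all genes, which held 12.8% of the variance, KO replicate 4 and WT replicate 4 lay lowest, at -14.1 and -25.6.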

How the results depend on the processing

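The fits were repeated with median centring, with quantile normalisation, without the variance trend, with the replicate block, with pseudocounts of 5 and 0.25, unfiltered, with a minimum value of 8, with an adjusted p of 0.01 and each library left out, and, chosen after seeing the data, without both replicate-4 libraries, on the plain per-million scale and with no further pseudocount. The count of 8 subunits called higher was 13 with the replicate block, 3 on the plain per-million scale and 3 at an adjusted p of 0.01, and 3 to 9 with single libraries left out. The 2 Ndufaf genes called higher were 1 with the minimum of 8 (which leaves Ndufaf8 out), 1 at an adjusted p of 0.01, 1 without both replicate-4 libraries and 1 to 2 with single libraries left out. No subunit was called lower except 3 on the plain per-million scale, and 1 Ndufaf gene was called lower on that scale, with 0 to 1 when single libraries were left out. The subunit median of 0.12 was 0.0332 on the plain scale. Over all genes 4708 were called, 3056 at an adjusted p of 0.01 and 3822 to 4699 with single libraries left out. Tfam kept its direction and call in all fits. The replicate block added 5 subunit calls and ended none among the 45 genes. Apart from the stricter threshold, the smaller number of genes or samples and the changed scale that define these settings, the cause was not tested. Depth limits the assembly factors most, with as few as 74 reads in a library.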

Other observations

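Names left out of the 45 genes by the naming rule are given here as values. Ndufb1-ps, which GENCODE M21 does not class as protein-coding, had 59.1, 49.0, 50.4 and 52.3 in KO, against 46.4, 51.2, 41.6 and 43.3 in WT (log2 fold change 0.20, limma adjusted p = 0.0771), and passed the threshold with the replicate block (adjusted p = 0.04996). It may stand for the mouse Ndufb1 subunit gene, which was not settled here. Ndufa4, now placed in complex IV, had 89.8, 75.0, 82.0 and 77.9 in KO, against 87.6, 91.1, 82.9 and 75.7 in WT (log2 fold change -0.05, limma adjusted p = 0.614). The genes with NRF1 letters in their promoter window had a median log2 fold change of 0.16 (1 of 9 called), and those with a window and no such letters 0.11 (7 of 30 called). With the replicate block 3 of 9 and 10 of 30 were called higher, against 22.4% of all tested genes (18.7% without the block).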
